A study of Mus musculus with 43 samples.

Results

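Crh, the gene for corticotropin-releasing hormone, was followed across 4 hypothalamic nuclei of fed and fasted mice. It was found by its Ensembl identifier, ENSMUSG00000049796, as 1 of 10127 genes in the deposited expression table. In the GRCm38 mouse genome with the GENCODE M21 annotation it lies on the minus strand at chr3:19693401-19695396. Its exon 1, at chr3:19695167-19695396, is untranslated, and its coding sequence of 561 bp, at chr3:19693916-19694476, lies within exon 2, at chr3:19693401-19694490. No annotated gene overlapped it, and the nearest, Trim55 on the opposite strand, ended 979 bp away.

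Corticotropin-releasing hormone is a peptide made by parvocellular neurons of the paraventricular nucleus (PVN). It is carried in portal blood to the pituitary, where it binds the receptor CRHR1 and releases corticotropin, which drives glucocorticoid secretion from the adrenal gland. Glucocorticoids feed back to lower Crh transcription in the PVN, cAMP signalling raises it, and the hormone also acts in the brain, where it reduces food intake.

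The libraries came from adult male mice on a C57/BL6 background that carried the paternal deletion B6(Cg)-Snord116tm1.1Uta/J, which removes a cluster of small nucleolar RNAs expressed from the paternal allele. All groups shared this deletion, a germline change, and no wild-type library was analysed here. Mice were either fed ad libitum or deprived of food for 24 hours, and the arcuate nucleus (ARC), dorsomedial hypothalamus (DMH), PVN and ventromedial hypothalamus (VMH) were collected by laser capture microdissection in 3 batches. The 41 libraries, from 12 mice, numbered 4 fasted and 5 fed in ARC, 5 and 6 in DMH, 5 and 5 in PVN, and 6 and 5 in VMH.

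A library is called by its nucleus and the number of its mouse, as in PVN-86. Depth was 1.94 to 8.23 M (mega) reads, with a median of 4.10 M. The labels of the nuclei were checked against their defining genes. Avp, the vasopressin gene, was at 395 to 1475 CPM (read counts scaled to the total of the library) in PVN and at most 10.04 CPM elsewhere. Npvf, which marks the DMH, was at 56.5 to 225 CPM there and at most 6.30 CPM elsewhere. Hcrt and Pmch, genes of lateral hypothalamic neurons, were at 46.7 to 268 and 149 to 631 CPM in the DMH libraries. Elsewhere they were at most 11.9 and 75.9 CPM. A DMH library is thus named by its label, and how much lateral tissue it holds was not tested. Sim1, Oxt, Trh and Otp, other PVN markers, were not analysed here. A captured nucleus holds many cell types, so fewer cells of a type and less RNA per cell cannot be told apart.

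One fasted library, PVN-86, stood apart from the other PVN libraries in many genes. Among 7497 genes with a mean of at least 5 CPM in PVN, it was the highest library in 1596 (21.3%) and lay at least 2-fold above all 9 others in 154 (2.05%). It lay at least 2-fold below all others in 198. The only fed PVN library of the same batch, PVN-111, lay at least 2-fold above all others in 85 genes and PVN-125 in 22, whereas each of the remaining 7 libraries did so in 0 to 10. The mean correlation of PVN-86 with the other PVN libraries across genes was 0.840, against 0.860 to 0.924 for the others. Differences of Crh that involve PVN are also given without PVN-86, a library singled out for its Crh value. For other genes, the fasting differences in PVN and the calls between nuclei that changed are given without it too.

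**Figure D1:**
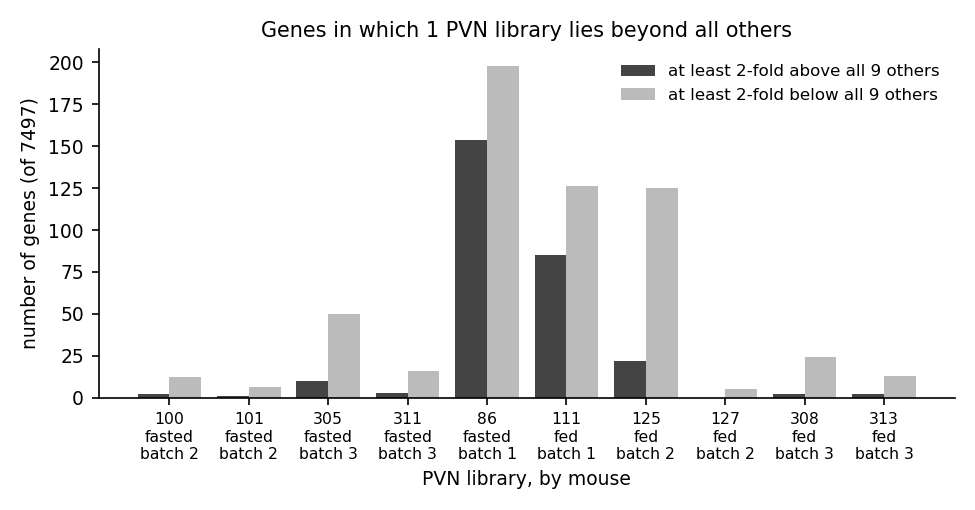
Number of genes (vertical axis, of 7497 with a mean of at least 5 CPM) in which each of the 10 PVN libraries (horizontal axis, by mouse, state and batch) lay at least 2-fold above (dark bars) or below (light bars) all 9 others, on log2(CPM + 0.5). PVN-86 had the most in both directions, 154 above and 198 below.

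The first question was where Crh RNA was found. Crh was highest in PVN, low in DMH and at or near 0 in ARC and VMH. In fed PVN it was at 39.4 CPM in PVN-111, 30.0 in PVN-125, 24.3 in PVN-127, 30.7 in PVN-308 and 30.9 in PVN-313. In fasted PVN it was at 26.3 CPM in PVN-100, 24.8 in PVN-101, 14.5 in PVN-305, 22.0 in PVN-311 and 126 in PVN-86. The value of PVN-86 rested on 664 reads, and those of the other PVN libraries on 38 to 223.

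The value in PVN-86 was 4.78 times the median of the other 9 PVN libraries, which spanned 14.5 to 39.4 CPM. The mean over the 10 PVN libraries was 36.8 ± 31.8 CPM (SD, n = 10), and without PVN-86 it was 27.0 ± 6.95 CPM (n = 9).

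In fasted DMH, Crh was at 6.40 CPM in DMH-100, 3.42 in DMH-101, 1.76 in DMH-305, 1.94 in DMH-311 and 5.28 in DMH-86. In the 6 fed DMH libraries it ran from 0 to 2.32 CPM, with a median of 0.823. These values rest on 0 to 23 reads a library, so the counting error of each is large. Crh was detected in 9 of 11 DMH libraries. The 2 DMH libraries at 0 allowed up to 0.509 and 0.624 CPM, the value of 3 reads.

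In ARC, 3 of 9 libraries held Crh reads, 1 read each, and the highest was at 0.304 CPM. In VMH, 3 of 11 libraries held Crh reads and the highest was at 0.452 CPM, or 2 reads. A library at 0 allowed up to 0.477 to 1.27 CPM in ARC and 0.507 to 1.55 CPM in VMH. Every PVN library lay above every library of the other nuclei, the highest of which was DMH-100.

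Reads summed over libraries gave the same order with their counting error. PVN held 1742 Crh reads, or 39.1 per M reads, and DMH held 93, or 1.89 per M reads. The ratio of PVN to DMH was 20.7 (95% exact interval 16.8 to 25.8), and 14.5 (11.7 to 18.2) without PVN-86. ARC held 3 reads and VMH 4, which put PVN 505 times above ARC (172 to 2449) and 439 times above VMH (171 to 1615). Without PVN-86 these ratios were 354 (121 to 1721) and 309 (120 to 1135). Intervals and limits cover counting error alone, since amplification makes several reads of 1 molecule.

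**Figure D2:**
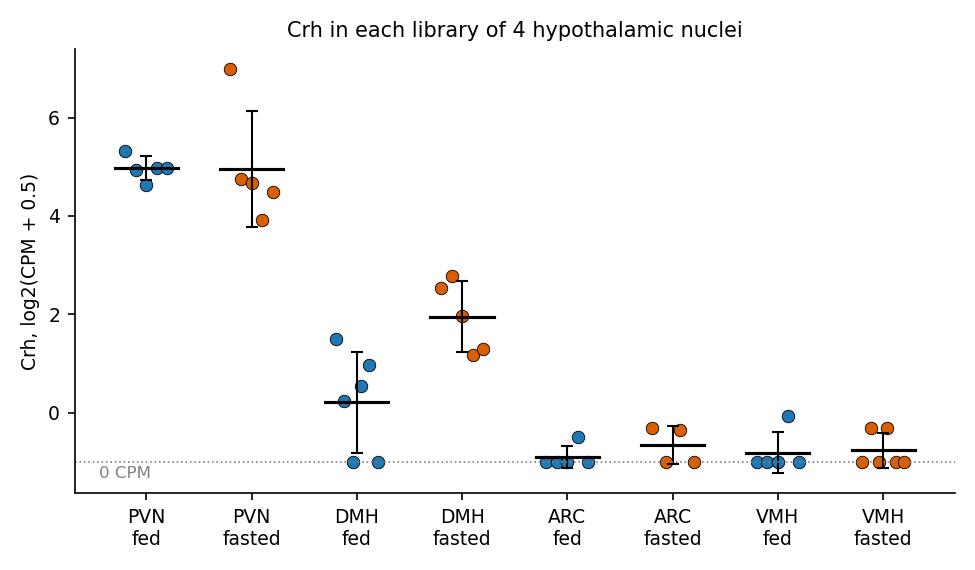
Crh in every library on the scale log2(CPM + 0.5) (vertical axis), by nucleus and state (horizontal axis), with fed libraries in blue and fasted in orange. Thick bars are group means, thin bars 1 SD, and the dotted line marks 0 CPM. All 10 PVN libraries lie above all others, and the highest point is PVN-86.

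On log2(CPM + 0.5), in the fit over all 41 libraries, Crh was higher in PVN than in the mean of the other nuclei by 5.16 ± 0.29 (SE; limma, adjusted p = 7.73e-20), and by 4.93 ± 0.29 without PVN-86. In that comparison 22% of the 10121 genes tested passed the threshold (an adjusted p under 0.1), 10.4% as higher in PVN. Crh in PVN exceeded DMH by 3.92 ± 0.34 (adjusted p = 9.07e-13), ARC by 5.75 ± 0.36 and VMH by 5.79 ± 0.34, where 18%, 16.6% and 31.2% of genes passed. Without PVN-86 these differences were 3.69, 5.53 and 5.56. The DMH in turn exceeded ARC by 1.83 ± 0.35 (adjusted p = 0.000132) and VMH by 1.87 ± 0.33 (adjusted p = 2.31e-05), where 17.9% and 23.3% of genes passed. As most ARC and VMH libraries were at 0, these differences depended on the pseudocount, from 0.88 and 0.90 with 2 to 3.10 and 3.21 with 0.1, all past the threshold. ARC and VMH did not differ beyond their spread, with a difference of 0.04 (95% interval -0.67 to 0.75, adjusted p = 0.953), in a comparison in which 30.2% of genes passed. The order was thus PVN, DMH, then ARC and VMH without a detectable difference between them.

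Per kilobase of exon (1320 bp for Crh), the mean level in PVN was 27.9 ± 24.1 CPM per kb (SD, n = 10), above 91.5% of the 9890 genes with a length. Without PVN-86 it was 20.4 ± 5.26 CPM per kb, above 87.6% of genes. In DMH the mean was 1.67 ± 1.57 CPM per kb (n = 11), above 24.1% of genes. On the same scale Avp in PVN was at 1387 ± 594 CPM per kb.

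Vasopressin is released with corticotropin-releasing hormone by parvocellular neurons and is also made in bulk by magnocellular neurons of the PVN. The ratio of the mean Crh to the mean Avp level in CPM was 0.0460 in PVN and 1.30 in DMH, where Avp was at 0.385 to 3.77 CPM. The ratio in DMH rests on low values of both genes, and the source of Crh RNA there was not tested.

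Of 7 genes of the corticotropin-releasing hormone family (ligands, receptors and binding protein), the table held Crh and Ucn3. Ucn, Ucn2, Crhr1, Crhr2 and Crhbp were not analysed here. Ucn3 encodes urocortin 3, a ligand of the receptor CRHR2, and lies on the minus strand at chr13:3940688-3945349. It was also highest in PVN, at 15.7 ± 6.44 CPM per kb (SD, n = 10), and exceeded the other nuclei by 4.88 ± 0.30 on log2(CPM + 0.5) (limma, adjusted p = 3.37e-18).

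In fed PVN, Ucn3 was at 22.3 CPM in PVN-111, 7.37 in PVN-125, 25.5 in PVN-127, 18.3 in PVN-308 and 19.3 in PVN-313. In fasted PVN it was at 37.4 CPM in PVN-100, 34.6 in PVN-101, 33.2 in PVN-305, 19.97 in PVN-311 and 14.4 in PVN-86. PVN-86 thus held the highest Crh and the second lowest Ucn3 of the 10 libraries, and fed and fasted values of Ucn3 overlapped. The fasting difference of Ucn3 was 0.60 ± 0.35 (limma, adjusted p = 0.601), and 0.90 ± 0.34 without PVN-86 (adjusted p = 0.408). With each mouse left out in turn it ran from 0.21 to 0.90 and never passed the threshold.

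The next question was whether 24 hours without food changed Crh in PVN. Across all 10 libraries the means on log2(CPM + 0.5) were nearly equal, with a fasted minus fed difference of -0.01 ± 0.29 (SE; 95% interval -0.62 to 0.61; limma with batch, adjusted p = 0.998). In that comparison 0.367% of the 9529 genes tested passed, 29 as higher and 6 as lower in fasted mice, and 9.97% had an unadjusted p under 0.05. The near-zero difference combined 1 fasted library above all fed ones, PVN-86, with 2 fasted libraries below all fed ones, PVN-305 and PVN-311.

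Without PVN-86, the 4 fasted libraries had a mean of 21.9 ± 5.23 CPM (SD) and the 5 fed ones 31.1 ± 5.40 CPM. Both groups still overlapped, since PVN-100 and PVN-101, both fasted, lay above the fed library PVN-127. The other 4 fed libraries lay above all 4 fasted ones. The difference was then -0.42 ± 0.25 (95% interval -0.94 to 0.10), which did not pass the threshold (limma with batch, adjusted p = 0.642). Leaving out PVN-86 leaves PVN-111 as the only library of batch 1, and the fit then takes its estimate from batches 2 and 3.

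The same -0.42 was obtained without PVN-111, the fed library of batch 1, because the batch term then absorbs PVN-86. Without both libraries it was -0.42 ± 0.25 (adjusted p = 0.648). Leaving out each of the other 8 libraries gave differences between -0.04 and 0.20.

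In an exact permutation test of this single gene, 2-sided and without batch, no relabelling of the 10 libraries gave a smaller difference than the observed one (p = 1 over 252 relabellings). Without PVN-86 the difference was -0.51, and 4 of 126 relabellings were at least as large (exact permutation p = 0.0317). With relabelling kept within batches it was -0.42 and 6 of 36 were as large (exact permutation p = 0.167). PVN-86 was singled out for its Crh value, so leaving it out depends on the outcome, and the values without it are a description of the other libraries, not a test of fasting.

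Batches differed in both the size and the sign of the change. The labels place 2 fasted and 2 fed PVN samples in batch 1, of which 1 of each was analysed here. In batch 1 fasted minus fed was 1.66 on log2(CPM + 0.5), with 126 CPM in the only fasted and 39.4 CPM in the only fed library. In batch 2 it was -0.08, with means of 25.5 and 27.1 CPM over 2 libraries each. In batch 3 it was -0.77, with means of 18.2 and 30.8 CPM over 2 libraries each.

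**Figure D3:**
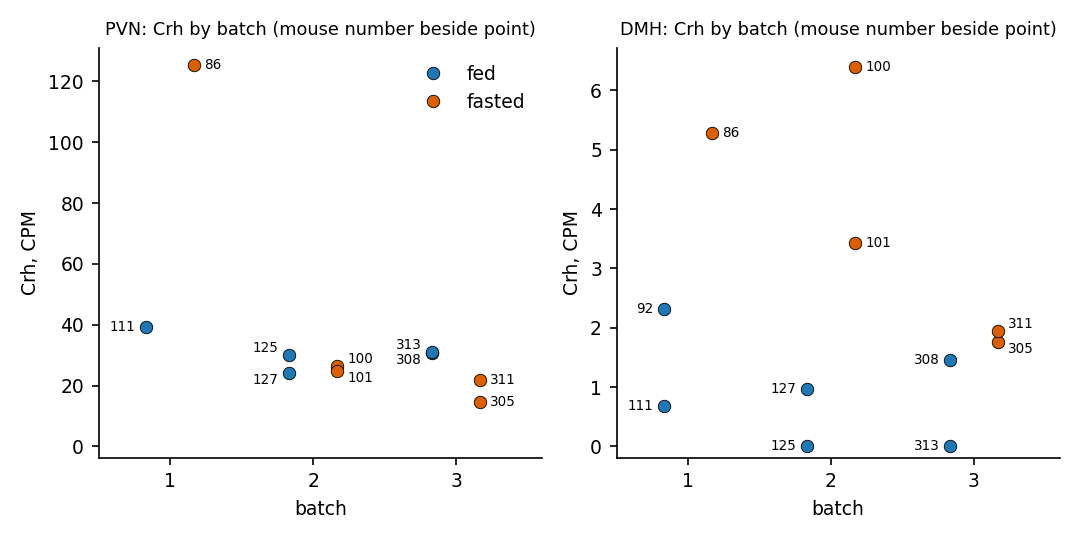
Crh in CPM (vertical axis) in PVN (left) and DMH (right) by batch (horizontal axis), with fed libraries in blue, fasted in orange and the mouse number beside each point. In PVN the fasted library of mouse 86 is at 126 CPM and the others at 14.5 to 39.4 CPM, whereas in DMH the fasted mean exceeds the fed mean in each batch.

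**Figure D4:**
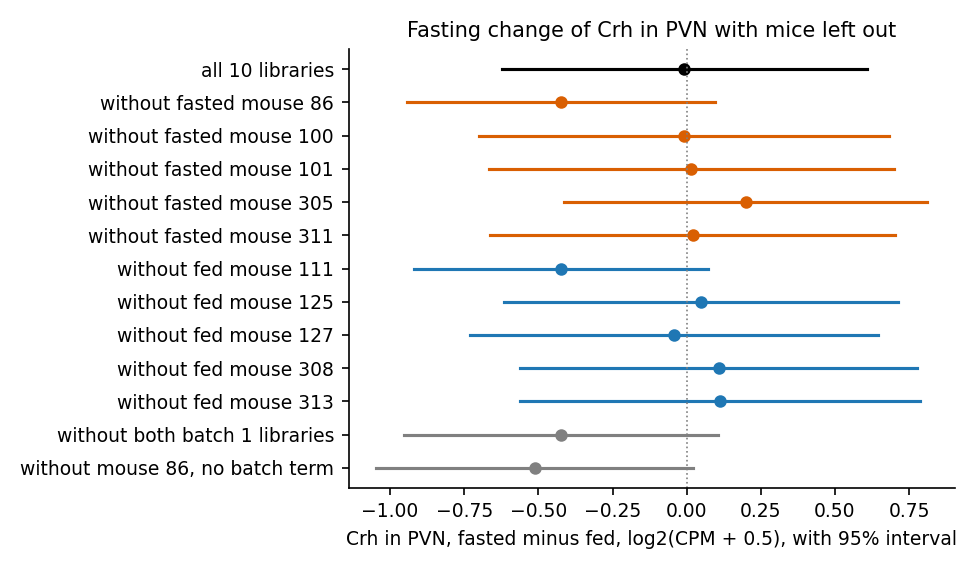
Fasted minus fed difference of Crh in PVN on log2(CPM + 0.5) (horizontal axis) with its 95% interval from limma, for all 10 libraries (black), without each fasted (orange) or fed (blue) library, and for further fits (grey). All 13 intervals include 0, and the estimate falls to -0.42 without PVN-86 or PVN-111.

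In DMH, where Crh was low, fasted libraries held more Crh than fed ones. Means were 3.76 ± 2.04 CPM (SD) over 5 fasted and 0.904 ± 0.895 CPM over 6 fed libraries. Of the fasted libraries, DMH-100, DMH-86 and DMH-101 lay above all fed ones. DMH-311 and DMH-305 lay below the fed library DMH-92, and 5 of 6 fed libraries lay below all fasted ones.

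The fasting difference in DMH was 1.86 ± 0.62 on log2(CPM + 0.5) (95% interval 0.58 to 3.14), but it did not pass the adjustment over all genes (limma, unadjusted p = 0.00657, adjusted p = 0.695). Its size depended on the pseudocount, at 1.03 with 2 and 2.81 with 0.1, and was 3.44 with depth as a covariate. In DMH 0.0103% of 9751 genes passed, and 6.62% had an unadjusted p under 0.05. In an exact permutation test of Crh alone the difference in DMH was 1.74, and 7 of 462 relabellings were as large (p = 0.0152). The difference had the same sign within each batch, at 1.66, 2.60 and 1.25. The test of this gene alone was added after the values were seen. Avp in DMH had means of 2.16 CPM in fasted and 1.31 CPM in fed libraries (1.11 to 3.77 and 0.385 to 2.73 CPM), and differed by -0.32, 0.74 and 1.15 on log2(CPM + 0.5) in batches 1, 2 and 3. Both genes thus overlapped between the states.

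In ARC and VMH, Crh was below the minimum level for the test (1 CPM or more in a number of libraries equal to the smaller group), so a change with fasting was not detectable at this depth.

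Whether the fasting change differed between nuclei was tested directly. On log2(CPM + 0.5) the change in PVN minus the mean change in the other nuclei was -0.67 ± 0.57 (limma, unadjusted p = 0.244, adjusted p = 0.984), and -1.11 ± 0.57 without PVN-86 (unadjusted p = 0.0597). The change in PVN minus that in DMH was -1.83 ± 0.69 (unadjusted p = 0.0104, adjusted p = 0.809), and -2.23 ± 0.68 without PVN-86 (unadjusted p = 0.00185, adjusted p = 0.996). The F-test of any difference between nuclei gave an adjusted p of 0.902 for Crh (unadjusted p = 0.0239), and by that test 0% of genes passed, with 517 genes (5.11%) at an unadjusted p under 0.05. In each of the comparisons of PVN with the other nuclei and with DMH 0.00988% of genes passed. A difference between nuclei in the fasting change of Crh was therefore not established over the whole table. The F-test and the comparison with the mean of the other nuclei include ARC and VMH, where 6 of 9 and 8 of 11 libraries were at 0. Changes there are held near 0 by the low depth, so these 2 tests cannot decide whether they differ from that in PVN.

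For 10 mice both PVN and DMH were measured. The mouse with the highest Crh in PVN, mouse 86, had the second highest in DMH, at 5.28 CPM. The mouse of DMH-100, the highest in DMH at 6.40 CPM, ranked sixth in PVN, at 26.3 CPM. The mouse of PVN-111, second in PVN at 39.4 CPM, was at 0.682 CPM in DMH, so the order of the mice in one nucleus was not that in the other.

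Genes of the pathways around Crh were then described from lists chosen with earlier results of these data known. Without PVN-86 the counts between nuclei changed only in the lists of neuropeptides and receptors. Of 14 PVN neuropeptides 5 were measured. Of these, 3 were higher and 1 lower in PVN than in the mean of the other nuclei, against 10.4% and 11.6% of all genes. Here and in the lists below, a difference from the other nuclei is one from the mean of ARC, DMH and VMH. Avp exceeded the other nuclei by 8.21 ± 0.26 on log2(CPM + 0.5) (limma, adjusted p = 1.12e-29). Penk, which encodes enkephalins, exceeded them by 1.14 ± 0.12, and Cck, the cholecystokinin gene, exceeded their mean by 0.98 ± 0.37 (adjusted p = 0.0579). Cck was not above each nucleus, with means of 12.7 CPM in PVN, 32.0 in DMH, 8.68 in ARC and 1.41 in VMH. Pnoc, the prepronociceptin gene, was below the mean of the other nuclei by 0.91 ± 0.34 (adjusted p = 0.0519). Its means were 3.54 CPM in PVN, 16.0 in ARC and 7.73 in DMH, but 2.32 in VMH, below PVN. The calls on Cck and Pnoc were not firm. That on Cck was lost without the mouse of PVN-111 or of PVN-311 (adjusted p = 0.197 and 0.210), with the mouse as a fixed block (adjusted p = 0.108) and with a pseudocount of 2 (adjusted p = 0.180). That on Pnoc was lost without the mouse of PVN-86, PVN-100 or PVN-125 (adjusted p = 0.199, 0.124 and 0.242) and without PVN-86 alone (adjusted p = 0.146). None of the 5 passed for fasting in PVN, by limma, and 2 had an unadjusted p under 0.05, against 9.97% of all genes, Avp at 0.35 ± 0.12 (adjusted p = 0.310) and Penk at 0.31 ± 0.13 (adjusted p = 0.448). Without PVN-86 these were 0.38 and 0.32, and 0 of the 5 passed.

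Crh and Avp did not keep a fixed proportion in PVN. The ratio of Crh to Avp in CPM was 0.0851 in PVN-86, where Avp was also the highest of the 10 at 1475 CPM. It was 0.0777 in the fed library PVN-308 and 0.0222 to 0.0533 in the other 8.

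Of 11 transcription factors of neuroendocrine PVN neurons 6 were measured, of which 4 were higher in PVN, against 10.4% of all genes. Pou3f2, required for the neurons that make Crh, Avp and oxytocin, exceeded the other nuclei by 3.74 ± 0.20 (limma, adjusted p = 8.02e-21), Nhlh2 by 1.94 ± 0.30, Sim2 by 1.73 ± 0.43 and Lhx5 by 1.32 ± 0.29. Sim2 was not above each nucleus in fasted mice, with medians of 1.21 CPM in fasted PVN and 2.16 in fasted DMH. Its highest PVN values were 28.8 CPM in PVN-111 and 8.32 in PVN-86. Isl1, a factor of arcuate neurons, was lower by 4.58 ± 0.23. With fasting, 0 of the 5 tested passed in PVN by limma and 2 had an unadjusted p under 0.05, against 9.97% of all genes, Sim2 at -1.28 ± 0.45 (adjusted p = 0.331) and Pou3f2 at -0.50 ± 0.15 (adjusted p = 0.253). Without PVN-86 these were -1.16 and -0.35, and 0 of the 5 passed. In PVN-86 Pou3f2 was at 37.2 CPM, below the 79.9 to 133 CPM of the other PVN libraries, whereas Crh was above all of them.

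Of 20 genes that carry cAMP and CREB signalling to the Crh promoter 7 were measured, and 2 were higher in PVN, against 10.4% of all genes. Jun, a subunit of the AP-1 factor, exceeded the other nuclei by 0.99 ± 0.15 (limma, adjusted p = 9.36e-07). Adcyap1r1, the receptor of the peptide PACAP, exceeded them by 0.19 ± 0.06 (limma, adjusted p = 0.0184). Its means were 525 CPM in PVN, 501 in ARC, 484 in DMH and 405 in VMH. For fasting in PVN 0 of 7 passed by limma, and 1 had an unadjusted p under 0.05, near the 9.97% of all genes, Jun at -0.34 ± 0.16 (adjusted p = 0.495), or -0.37 without PVN-86.

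The glucocorticoid list, with receptors and genes that glucocorticoids induce, held the most calls for fasting in PVN with all libraries, 3, and 1 without PVN-86, as many as the list for peptide processing. Over all genes 35 passed with all libraries, and 2 to 31 when a mouse, such as mouse 86, was left out. Of 18 genes 8 were measured, 3 were higher in fasted mice and 0 lower, against 0.304% and 0.063% of all genes, and the median difference was 0.79, beside 0.01 over all genes. Those 3 were Rasd1, a Ras-like protein induced by dexamethasone, and the metallothionein genes Mt1 and Mt2, which bind metals and are also induced by zinc.

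In fed PVN, Rasd1 was at 5.16, 2.29, 4.28, 7.16 and 4.76 CPM in PVN-111, PVN-125, PVN-127, PVN-308 and PVN-313. In fasted PVN it was at 16.2, 15.2, 8.02, 20.4 and 58.0 CPM in PVN-100, PVN-101, PVN-305, PVN-311 and PVN-86. All fasted values lay above all fed ones, with the highest in PVN-86.

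Rasd1 rose by 1.96 ± 0.41 on log2(CPM + 0.5) (limma, adjusted p = 0.0637), Mt1 by 1.08 ± 0.19 (adjusted p = 0.0275) and Mt2 by 1.20 ± 0.25 (adjusted p = 0.0637). Without PVN-86 the differences were 1.61 for Rasd1 (adjusted p = 0.222), 1.04 for Mt1 (adjusted p = 0.0656) and 0.87 for Mt2 (adjusted p = 0.199), so 1 of the 3 calls was left. With each of the 10 libraries left out in turn, Rasd1 stayed past the threshold only without PVN-305 or PVN-308, and Mt2 only without PVN-125, PVN-305 or PVN-313. Mt1 lost its call without PVN-100 (adjusted p = 0.151) or PVN-311 (adjusted p = 0.107). Without a batch term 0 of the 3 passed (limma, adjusted p = 0.538 for Rasd1, 0.663 for Mt1 and 0.728 for Mt2).

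Between nuclei, 2 genes of the glucocorticoid list were higher and 2 lower in PVN, against 10.4% and 11.6% of all genes. Rasd1 exceeded the other nuclei by 1.53 ± 0.33 and Nr3c2, the mineralocorticoid receptor gene, by 0.41 ± 0.16 (limma, adjusted p = 0.0612). Among fed libraries Rasd1 was not above each nucleus, with means of 4.73 CPM in PVN, 5.49 in VMH, 3.31 in ARC and 1.41 in DMH. Mt1 was lower by 0.60 ± 0.12 and Mt2 by 0.41 ± 0.13, and the call on Mt2 was lost without a batch term (limma, adjusted p = 0.164). The call on Nr3c2 was lost without the mouse of PVN-101, PVN-127, PVN-305 or PVN-313 (adjusted p = 0.134, 0.122, 0.105 and 0.140). Nr3c1, the glucocorticoid receptor gene itself, was not analysed here.

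Of 14 genes for peptide processing and dense core vesicles 6 were measured, and 4 were higher in PVN, against 10.4% of all genes. Vgf, a granin-like secreted protein, exceeded the other nuclei by 0.81 ± 0.14, Scg2 (secretogranin II) by 0.66 ± 0.06, Cpe (carboxypeptidase E, which trims prohormone fragments) by 0.49 ± 0.05 and Scg3 (secretogranin III) by 0.40 ± 0.07, all past the threshold by limma. For fasting in PVN 1 of the 6 was higher, against 0.304% of all genes. In fed PVN, Vgf was at 111.4, 80.1, 68.6, 52.3 and 42.3 CPM in PVN-111, PVN-125, PVN-127, PVN-308 and PVN-313. In fasted PVN it was at 132, 111.3, 74.1, 105 and 383 CPM in PVN-100, PVN-101, PVN-305, PVN-311 and PVN-86. Fed and fasted values overlapped, and PVN-86 was again the highest. Vgf rose by 1.00 ± 0.17 (limma, adjusted p = 0.0248), and by 0.81 without PVN-86 (adjusted p = 0.0656), and it lost its call without PVN-100 (adjusted p = 0.151) or without a batch term (adjusted p = 0.728).

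Of 19 receptors for inputs to neurons that make Crh 13 were measured, and 4 were higher and 5 lower in PVN, against 10.4% and 11.6% of all genes. Mc4r, the melanocortin 4 receptor gene, exceeded the other nuclei by 2.14 ± 0.34 (limma, adjusted p = 2.25e-06). Also higher were Adra1b by 0.74 ± 0.27, Htr2c by 0.60 ± 0.13 and Cnr1 by 0.28 ± 0.11. Oxtr, the oxytocin receptor gene, was lower by 1.93 ± 0.28, Lepr, the leptin receptor gene, by 1.84 ± 0.24, and Npy5r, a neuropeptide Y receptor gene, by 1.12 ± 0.37. Means of Npy5r were 3.44 CPM in PVN, 18.2 in ARC, 4.65 in DMH and 4.02 in VMH. Grin2b was lower by 0.33 ± 0.10 and Gabrb1 by 0.23 ± 0.10. Without PVN-86 2 were higher and 4 lower, as Adra1b, Cnr1 and Gabrb1 lost their calls (limma, adjusted p = 0.164, 0.136 and 0.260). Over all genes 2230 passed with all libraries, and 2140 to 2713 over 11 alternatives that include leaving out PVN-86 alone. The call on Npy5r was lost without the mouse of PVN-305 or PVN-308 (adjusted p = 0.114 and 0.152). For fasting in PVN 0 of the 13 passed by limma and 2 had an unadjusted p under 0.05, near the 9.97% of all genes, Npy5r at -2.11 ± 0.61 (adjusted p = 0.239) and Npy1r at -0.67 ± 0.26 (adjusted p = 0.401). Without PVN-86, Npy5r was at -1.64 and Npy1r at -0.42, where only the first kept an unadjusted p under 0.05, and 0 of the 13 passed.

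**Figure D5:**
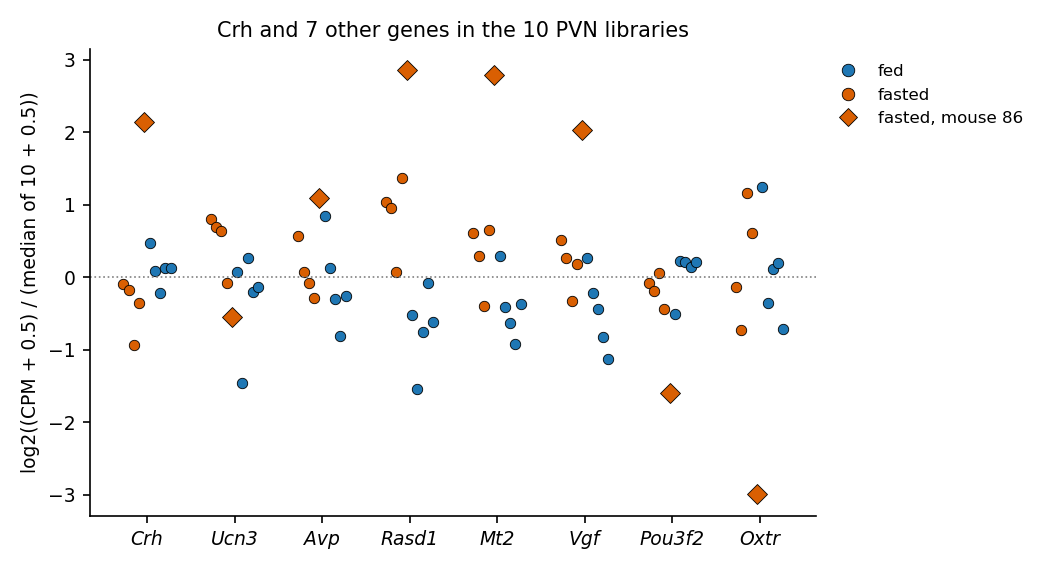
Crh and 7 other genes in the 10 PVN libraries, each as log2 of its CPM + 0.5 over the median of the 10 plus 0.5 (vertical axis), with fed libraries as blue circles, fasted as orange circles and PVN-86 as an orange diamond. PVN-86 is the highest for Crh, Avp, Rasd1, Mt2 and Vgf and the lowest for Pou3f2 and Oxtr.

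The genes whose pattern over all 41 libraries was most like that of Crh, by Pearson's r on log2(CPM + 0.5), were Ubash3b (0.896), Tns1 (0.891), Ucn3 (0.887), Fat1 (0.883) and Reln (0.880). These libraries fall into nuclei, and libraries of a mouse and batch share their preparation. Within the 10 PVN libraries the same genes had r of 0.35, 0.70, -0.44, 0.63 and -0.66 in that order, and without PVN-86 of 0.20, -0.06, -0.42, 0.49 and -0.31. Tns1 and Fat1 were thus like Crh within PVN too, Tns1 only with PVN-86, whereas Ucn3 and Reln had the opposite sign.

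Within the 10 PVN libraries the most like Crh were Ssh1 (0.953), Zcwpw2 (0.946), Tmem176b (0.936), Ticam2 (0.928) and Mrpl12 (0.927). Without PVN-86 their r was 0.80, 0.90, 0.67, 0.86 and 0.92. Over those 9 libraries the most like Crh were Pak4 (0.980), Dhx30 (0.967), Brs3 (0.960), Gch1 (0.958) and Elf1 (0.953). With PVN-86 these had r of 0.62, 0.81, -0.48, 0.63 and 0.71, and the sets of 5 had no gene in common. Such values are the highest over the whole table from few libraries and are given as a description.

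Crh was not the gene by which PVN-86 differed most. By its gap to the next highest PVN library on log2(CPM + 0.5), Crh ranked 31st of 7497 genes, with a gap of 1.66. The largest gaps were in Rab11fip5, an adaptor of vesicle recycling, at 4189 CPM against at most 65.6, and Zpr1, a zinc finger protein, at 2059 CPM against at most 35.2. Next came Bola3 at 158 CPM against at most 18.1, Lyve1 at 38.6 against at most 5.57, Lmntd1 at 34.0 against at most 4.89, and Fam192a at 372 against at most 59.7. They were followed by Pde6b at 44.2 CPM against at most 7.70, AI429214 at 41.2 against at most 7.25, Catsperg1 at 29.1 against at most 5.71, and Htr6 at 40.1 against at most 8.15.

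The same genes were looked up in the other nuclei of mouse 86. Rab11fip5 was at 57.4 to 76.9 CPM in ARC-86, DMH-86 and VMH-86, and Zpr1 at 10.9 to 31.3 CPM, against at most 87.1 and 35.8 CPM in those nuclei of other mice. Lyve1, a gene of perivascular macrophages and lymphatic endothelium, was at 39.5 CPM in ARC-86, 0.377 CPM in DMH-86 and 2.76 CPM in VMH-86, against at most 4.83 CPM outside PVN in other mice. Bola3, Vgf and Rasd1 lay above the other mice in ARC-86 only. In ARC-86 they were at 26.1, 155 and 20.4 CPM, against at most 24.7, 128 and 12.9 CPM outside PVN in other mice. They were at 10.9, 86.4 and 3.77 CPM in DMH-86 and 11.3, 23.3 and 3.98 CPM in VMH-86. Mt2 was at 279, 211 and 310.5 CPM in ARC-86, DMH-86 and VMH-86, against at most 227 CPM in those nuclei of other mice. Crh in ARC-86 and VMH-86 rested on 1 read each, at 0.304 and 0.306 CPM.

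Markers of other cell types were also summed in the PVN libraries. The astrocyte list (3 of 6 measured) summed to 331 CPM in PVN-86, against 167 to 221 CPM in the other fasted and 126 to 228 CPM in the fed libraries. Of the perivascular macrophage markers 2 of 6 were measured, and only Lyve1 was high, at 38.6 CPM, with F13a1 at 0.567 CPM against 0 to 7.63 in the other PVN libraries. Choroid plexus markers (3 of 4) summed to 34.0 CPM against at most 23.6, endothelial markers (4 of 5) to 299 against at most 272, and microglial markers (5 of 7) to 90.0 against at most 87.7.

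Markers of meningeal fibroblasts (4 of 6, with Lum at 0) summed to 59.9 CPM against at most 51.6, and those of the VMH (3 of 5) to 29.3 CPM against at most 21.2. General neuronal markers (2 of 5) summed to 463 CPM, below the 473 to 544 CPM of the other PVN libraries. Markers of DMH and lateral neurons (3 of 5, Npvf, Hcrt and Pmch, with Npvf at 0) summed to 0.567 CPM, below the lowest other library at 0.964. The sums of oligodendrocyte, ependymal, blood and ARC markers lay within the range of the other PVN libraries. The part of these differences in the Crh level of PVN-86 was not tested.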

How the data were processed

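RNA from laser-captured nuclei was amplified and sequenced, and the authors deposited CPM per Ensembl gene, reads scaled to the library total. Per the submitters' processing notes the tools were CASAVA 1.7, TopHat2 2.0.11, Cufflinks 2.2.1, edgeR and limma, with the GRCm38 build. The authors left out outlier libraries, which can lower the spread between replicates. Use of strand was not given in the sources used here. The authors' CPM sums came to 554896 to 689010 in a library, and the table held no gene in an identifier range with 6725 annotated genes. The highest sum was that of PVN-86, and the next was that of PVN-111 at 657687, both of batch 1. The other PVN libraries had sums of 556883 to 585573. The part of this in the Crh level of PVN-86 was not tested. Symbols and positions of 9891 genes came from GENCODE M21. Of the columns, 41 were matched to samples by nucleus, state and mouse. Left out were 2 of 43 samples, PVN of fasted mouse 85 and fed mouse 92, both of batch 1, and 2 columns that fit no sample's label, named for ARC of those mice in those states. Whether these are the same libraries was not tested, so PVN may lack 2 libraries of batch 1.

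Depth was read from the CPM worth of 1 read, of which 97.6% to 99.1% of low values were whole multiples (within 0.1 of a step). In 101 genes some values lay under 0.01 CPM, so no count test was run. Tests used log2(CPM + 0.5), which understates changes of low genes, with limma 3.58.1 in R 4.3.3 (eBayes with a trend). Genes were kept at 1 CPM or more in as many libraries as the smallest group. Fasting was tested per nucleus with batch as a covariate. Nuclei were compared over 41 libraries with 8 group means, batch and the mouse as a block, since a mouse gave up to 4 nuclei. The correlation within a mouse was near zero (-0.00). P values are 2-sided and adjusted by the Benjamini-Hochberg method over all genes, and called at an adjusted p under 0.1, the study's own limit. Single-gene tests were exact permutation tests with a threshold of 0.05. Intervals of read ratios are exact 95% binomial ones. The fits were tested on simulated data.

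The gene and the lists were chosen with earlier results of these data known. From each list the rule named up to 4 members with the largest called difference between PVN and the other nuclei and any called for fasting in PVN. It also named the 5 genes most like Crh over 3 sets of libraries and the 10 with the largest gaps in PVN-86. Lhx5, Adra1b, Htr2c, Cnr1, Grin2b, Gabrb1 and members named for an unadjusted p were added after their values were seen, and 1 list member is not reported here. Alternatives were other pseudocounts, filters, scaling, library weights, covariates, blocks and leaving out each mouse.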

Additional observations from a re-analysis of the deposited data

Results flagged for a closer look

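A value was picked out when its gap to the nearest other library was a large part of its group's range (Dixon's test at the 95% level, groups of 4 to 6). Crh in PVN-86 was known to stand apart beforehand and is given as a description. Beside it, 17 values were picked out in 59 groups of Crh and the other named genes. The test is set to pick out about 1 in 20 by chance, but that rate is no measure for these groups. The groups share libraries, some genes were named for their fasting calls in PVN, and some groups hold mostly libraries without reads. The picked values are therefore a description, and whether they exceed chance was not tested. In fasted PVN, PVN-86 stood above the other 4 libraries in 8 genes. These were Crh at 126 CPM (others 14.5 to 26.3), Rasd1 at 58.0 (8.02 to 20.4), Mt1 at 124 (35.1 to 55.2), Mt2 at 325 (35.1 to 73.0), Vgf at 383 (74.1 to 132), Scg2 at 3028 (1694 to 1975), Jun at 69.2 (45.2 to 50.7) and Sim2 at 8.32 CPM (1.06 to 1.96). In fed PVN, PVN-111, of the same batch, stood above the others in Cck at 40.2 CPM (4.04 to 8.26), Sim2 at 28.8 (2.38 to 5.34) and Mt1 at 51.1 (17.9 to 24.4), and below them in Pou3f2 at 79.9 (126 to 133).

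Isl1 was at 2.65 CPM in PVN-100 (other fasted PVN libraries 0.189 to 0.435) and at 3.17 in PVN-308 (other fed ones 0.238 to 1.02). The rest were low values beside libraries at or near 0. Crh was at 0.207 CPM in ARC-308 and 0.452 in VMH-308, with the other fed libraries of those nuclei at 0. Ucn3 was at 0.402 CPM in ARC-311, with the other fasted ARC libraries at 0, and at 1.22 in VMH-101 (others 0 to 0.306).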

How the results depend on the processing

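The difference of Crh between PVN and the other nuclei kept its direction and its call in 11 of 11 alternatives (3.69 to 6.63 on the log2 scale, lowest with a pseudocount of 2 and highest with 0.1) and with each of 12 mice left out (4.94 to 5.27). It was 5.16 with no replicate block and 5.15 with the mouse as a fixed term, and the replicate block changed no call on Crh, though the fixed term lost that on Cck (adjusted p = 0.108). The fasting change of Crh in PVN passed the threshold in none of 20 alternatives by limma, and its sign turned with a pseudocount of 2 (0.0058) and with depth as a covariate (0.11). With mice left out it ran from -0.42 to 0.20. In the exact permutation test it was 0.0058 with a pseudocount of 2 and -0.51 to 0.25 with mice left out, past the threshold only without PVN-86, a library singled out for its Crh value. The change in DMH kept its direction in 18 of 18 alternatives by limma (1.03 to 3.44) and passed in none of them, while the exact permutation p was 0.00794 to 0.0429 over 14. The change in PVN against the other nuclei was -1.14 to -0.34 over 22 alternatives and passed in none. Alternatives were run for 23 of the other genes named between nuclei. Of their values, 249 of 253 in alternatives and 265 of 276 with a mouse left out kept their call, and none turned. Lhx5, Adra1b, Htr2c, Cnr1, Grin2b and Gabrb1 were not in this tally, and Adra1b, Cnr1 and Gabrb1 lost their calls without PVN-86. The number of genes called for fasting in PVN was 35, 79 with library weights, 55 with depth as a covariate, 3 without batch, 2 without PVN-86 and batch, and 2 to 31 with mice left out. The alternative of a count test over all genes was not run, since whole reads were not recovered for every gene, though they were for Crh. With a minimum of 5 CPM, Crh in DMH was not tested. Alternatives that leave out PVN-86 alone, both batch 1 libraries or PVN-86 and the batch term, and all tests of Crh alone in DMH, were chosen after seeing the data. Depth limits Crh in ARC and VMH, where a library at 0 allows up to 1.55 CPM, and batch 1 gives PVN 1 analysed fasted and 1 analysed fed library.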
